A study of Mus musculus with 24 samples.

Results

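The 38 genes described here encode the enzymes and transporters of glycolysis (25 genes) and genes of the hypoxia response (13 genes). They were named by function, with earlier results of these data known. All 38 were found among the 14427 genes of the count table, matched through their Ensembl identifiers to GENCODE M21 symbols. They were followed in 24 RNA-seq libraries from 8 lines of mouse cortical astrocytes with 3 libraries each, and each p53 mutant line was compared with the p53 knockout (KO) line of its sex. The cells came from C57BL/6 pups at postnatal day 1 that carried 1 floxed and 1 germline-deleted Trp53 allele, and at least 3 pups of a sex were pooled, so that there was a single male culture (m1) and a single female culture (f1). All 8 lines received a lentivirus with Cre and a puromycin resistance gene, which deletes the floxed allele. The 6 mutant lines had first received a retrovirus with p53 R172H, Y202C or Y217C and eGFP and had been sorted for eGFP, while the KO lines had not, so the mutation and the retrovirus with its sort cannot be told apart. Sex and culture cannot be told apart either, and the 3 libraries of a line were separate thaws and platings of that line at passages 10 to 15 in medium with 10% serum, so that p-values measure the spread within lines and not between animals.

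Glycolysis turns glucose into pyruvate in the cytosol, and the pyruvate is then reduced to lactate and exported or taken into mitochondria and oxidised. Cells short of oxygen stabilise hypoxia-inducible factor (HIF), which prolyl hydroxylases mark for destruction when oxygen is present, and HIF raises many glycolytic genes together with genes for blood vessel growth, pH control and matrix formation. Astrocytes are known for a high glycolytic rate and for releasing lactate that neurons can take up.

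HIF binds DNA at a core of 5 bases, ACGTG or GCGTG on either strand, and the bases before the start site are shown for 6 members described in detail below. They are both lactate dehydrogenase genes (Ldha and Ldhb), the lactate carrier Slc16a1, the prolyl hydroxylases Egln3 and P4ha2, and the vasoactive peptide gene Adm, and all 6 windows lie outside the exons of GENCODE M21. The windows of Ldha and P4ha2 lie within the M21 span of their own gene, which begins further upstream. Each window holds the 250 bases before the first RefSeq start site, on GRCm38.p6, and lies at chr7:46845554-46845803 (plus strand) for Ldha, chr6:142507958-142508207 (minus) for Ldhb, chr3:104638414-104638663 (plus) for Slc16a1, chr12:54203875-54204124 (minus) for Egln3, chr11:54100674-54100923 (plus) for P4ha2 and chr7:110627407-110627656 (plus) for Adm. Letters are 5′ to 3′ on the gene's strand, and capitals mark the 5-base core on either strand.
Ldha: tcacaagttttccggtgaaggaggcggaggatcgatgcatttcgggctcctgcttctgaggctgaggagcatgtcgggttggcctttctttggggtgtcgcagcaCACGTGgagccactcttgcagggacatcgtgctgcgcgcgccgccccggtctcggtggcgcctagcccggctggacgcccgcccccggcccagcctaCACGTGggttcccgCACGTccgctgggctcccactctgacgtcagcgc
Ldhb: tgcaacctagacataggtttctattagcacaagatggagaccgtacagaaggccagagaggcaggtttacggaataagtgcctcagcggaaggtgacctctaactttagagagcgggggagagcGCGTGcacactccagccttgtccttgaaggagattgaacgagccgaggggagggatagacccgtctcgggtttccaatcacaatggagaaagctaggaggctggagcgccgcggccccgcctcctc
Slc16a1: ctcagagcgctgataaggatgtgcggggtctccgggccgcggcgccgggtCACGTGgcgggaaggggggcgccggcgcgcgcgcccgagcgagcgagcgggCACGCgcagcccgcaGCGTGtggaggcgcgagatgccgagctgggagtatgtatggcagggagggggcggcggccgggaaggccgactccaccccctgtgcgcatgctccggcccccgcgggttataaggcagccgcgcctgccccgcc
Egln3: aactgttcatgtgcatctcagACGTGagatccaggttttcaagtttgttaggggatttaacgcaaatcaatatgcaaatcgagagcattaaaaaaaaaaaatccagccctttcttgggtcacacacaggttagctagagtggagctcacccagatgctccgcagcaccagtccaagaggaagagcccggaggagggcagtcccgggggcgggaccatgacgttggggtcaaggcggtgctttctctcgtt
P4ha2: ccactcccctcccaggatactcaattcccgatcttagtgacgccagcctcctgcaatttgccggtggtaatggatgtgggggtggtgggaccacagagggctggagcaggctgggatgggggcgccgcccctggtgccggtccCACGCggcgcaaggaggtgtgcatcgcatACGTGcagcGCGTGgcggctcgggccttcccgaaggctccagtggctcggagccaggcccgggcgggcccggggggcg
Adm: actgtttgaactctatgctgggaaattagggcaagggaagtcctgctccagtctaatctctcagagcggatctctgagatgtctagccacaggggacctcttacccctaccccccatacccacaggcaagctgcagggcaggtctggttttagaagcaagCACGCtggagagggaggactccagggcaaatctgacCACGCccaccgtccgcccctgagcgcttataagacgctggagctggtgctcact
The Ldha window held 5 matches to ACGTG, 4 of them from the palindrome CACGTG, which is read on both strands and is also the E-box of other factors. The Ldhb window held 1 GCGTG and no ACGTG. RefSeq windows were matched for 35 members (Ero1l under the symbol Ero1a), and Slc2a3, Epas1 and Ndrg1 were not matched. ACGTG occurred in 54.3% of the member windows, against 16.6% of the windows of 27025 genes and 21.7% of those of 10290 genes of the count table. GCGTG occurred in 54.3% of the member windows, against 28.2% and 45.8%. Either core occurred in 80% of the member windows, against 38.6% and 56.9%. These matches are letters in a window and not measured binding.

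The libraries held 52787288 to 136503809 counted reads, and the lowest count of any member in any library was 36 (Ankrd37). Levels below are CPM values (reads of a gene relative to its library's total, the usual count scale of edgeR) with TMM scaling factors, and a change was called at an adjusted p of 0.05 or less in edgeR's quasi-likelihood test over all genes. Trp53 was at 46.5 to 53.7 CPM in the 6 KO libraries and at 573 to 3870 CPM in the 18 mutant libraries, and it was above its KO line in all 6 comparisons. The Trp53 counts of the KO lines were not at 0, and the mutant lines differed among themselves in Trp53 level, with the lowest mean in female Y202C (593 CPM) and the highest in female Y217C (3709 CPM). Of the 10 astrocyte markers, Gja1 (81 to 221 CPM as line means), Sox9 (80 to 183 CPM) and Glul (25.4 to 65.8 CPM) were expressed in all 8 lines, and Aldh1l1 was at 14.9 to 56.6 CPM in male Y202C, male Y217C and female R172H and at most 0.629 CPM in the other 5. Gfap lay between 0 and 0.29 CPM in 7 lines and reached 8.37 CPM in male Y217C, and Aqp4 was above 1 CPM in male Y202C and male Y217C and not in the other 6 lines. The 10 markers summed to between 227 and 685 CPM. The 6 fibroblast and meningeal markers summed to 8691 to 10592 CPM in male Y202C and to 17445 to 48670 CPM in the other 7 lines. Of the other lists, 5 of 7 microglial markers (Cx3cr1 and Ptprc among them), Rbfox3 and Snap25 of neurons, 4 of 8 oligodendrocyte lineage markers (Olig2 and Sox10 among them), Pecam1 and Cldn5 of endothelium and 2 of 3 ependymal markers were not in the table. Other markers of these lists were present. As line means, the microglial Tmem119 was at 16.4 to 107 CPM, the neuronal Tubb3 and Stmn2 were at 15.7 to 98.7 and 1.91 to 120 CPM, and the endothelial Cdh5 was at 33.3 CPM in male KO and at most 4.89 CPM elsewhere. Cspg4 and Pdgfra of the oligodendrocyte lineage were at 54.9 to 313 and 2.71 to 165 CPM. In bulk RNA, fewer cells of a type and less RNA per cell cannot be told apart.

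In each of the 6 mutant lines, the members below the KO line of the same sex outnumbered those above it among the called genes. In the male culture, 16 members fell and 7 rose with R172H, where 40.7% of all genes were called (20.5% lower and 20.2% higher). With Y202C, 22 male members fell and 11 rose, against a background of 73% (35.4% lower, 37.6% higher), and with Y217C 23 fell and 10 rose, against 70.5% (35.6% lower, 34.9% higher). In the female culture, 19 members fell and 12 rose with R172H (all genes 69.7%, 35.3% lower, 34.4% higher). With Y202C, 22 female members fell and 8 rose (all genes 68.6%, 34.3% lower, 34.3% higher), and with Y217C 23 fell and 8 rose (all genes 56.7%, 28.7% lower, 28% higher). The called members were 60.5%, 86.8% and 86.8% of 38 in the male and 81.6%, 78.9% and 81.6% in the female comparisons in the same order. The 3 male comparisons share the male KO libraries and the 3 female comparisons share the female KO libraries, so their counts are not independent of each other.

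Of the 25 glycolysis members, 14, 15 and 15 fell and 3, 7 and 6 rose in the male R172H, Y202C and Y217C lines, and 16, 14 and 18 fell and 6, 5 and 4 rose in the female lines. Their median log2 fold change lay between −0.45 (female Y202C) and −0.23 (female R172H), where the median of all genes lay between −0.01 and 0.01. Of the 13 hypoxia members, 2, 7 and 8 fell and 4, 4 and 4 rose in the male lines. In the female lines 3, 8 and 5 fell and 6, 3 and 4 rose. Called shares in the male lines were 68%, 88% and 84% for glycolysis and 46.2%, 84.6% and 92.3% for hypoxia members (all genes 40.7%, 73% and 70.5%). In the female lines they were 88%, 76% and 88%, and 69.2%, 84.6% and 69.2% (all genes 69.7%, 68.6% and 56.7%). The hypoxia share was thus near that of all genes in both R172H lines. In the map of all fold changes, lower calls outnumbered higher ones in every column for lower glycolysis and for the lactate and pyruvate genes. Of the 2 glucose transporters, 1, 2 and 1 rose and none fell in the male lines, and 1, 2 and 1 fell in the female lines. Upper glycolysis had 3 rises against 1 and 2 falls in male Y202C and Y217C, and no more rises than falls elsewhere. The account below follows the order of the pathway.

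**Figure D1:**
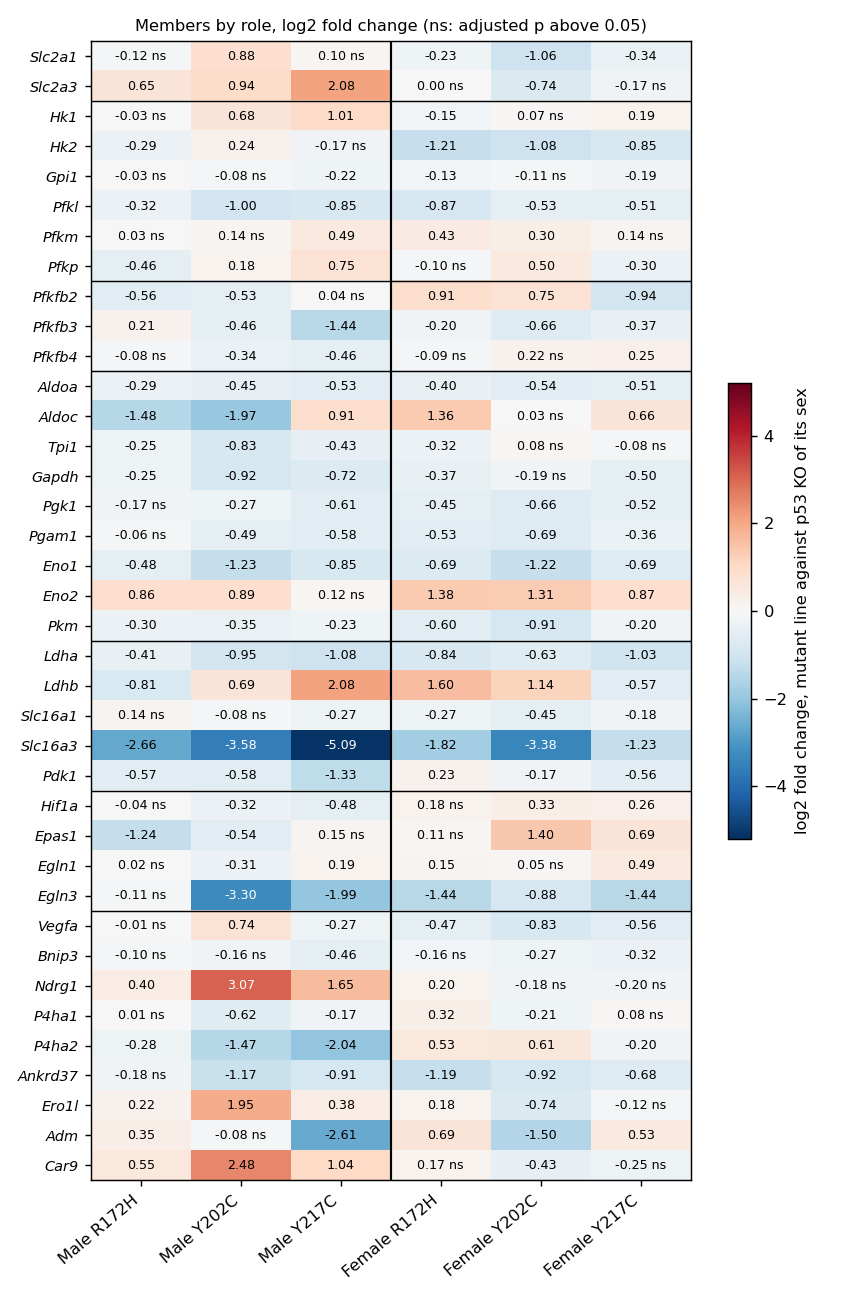
Log2 fold change of all 38 members (rows, grouped by role) in the 6 comparisons of a mutant line with the KO line of its sex (columns), with the value in each cell, red for higher, blue for lower and "ns" for an adjusted p above 0.05. Slc16a3 was lower in all 6 columns (−1.23 to −5.09), while Ndrg1, Ero1l and Car9 were highest in the male Y202C column (3.07, 1.95 and 2.48).

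The sum of the 25 glycolysis members, to which no test was applied, was lower in each mutant line. It was 10265, 9922 and 9571 CPM in male KO and 8605, 7566 and 7962 CPM in male R172H. In male Y202C it was 7002, 6726 and 6260 CPM, and in male Y217C it was 7056, 7275 and 7182 CPM. No male mutant library reached the lowest male KO library. In the female culture the sum was 10691, 10654 and 10420 CPM in KO, 7203, 7083 and 8120 CPM in R172H, 6963, 7988 and 6313 CPM in Y202C and 7376, 8120 and 7953 CPM in Y217C. Again no mutant library reached the KO libraries, and the female KO line had the highest mean sum of the 8 lines (10589 CPM). The sum is carried by the 9 genes of lower glycolysis, which made 8427 CPM of it in female KO and 7950 CPM in male KO. The share of counts on the mitochondrial chromosome was 1.63% to 1.83% in male KO and 2.91% to 3.47% in male Y217C, and 1.45% to 1.57% in female KO and 1.81% to 2.97% in female Y202C. Within female Y202C, replicate 2, with the highest sum of that line, stood apart in its counts (chi-square per degree of freedom of 51.9 and 56.5 against the others, which were at 11.6 from each other). On the same measure, male Y202C replicate 3, with the lowest sum of its line, was at 58.4 and 37.5 against the others. Those were at 21.2 from each other. Female Y217C replicate 1, also with the lowest sum of its line, was at 38.8 and 34.0, and the others were at 7.93. The part of these in the sums was not tested.

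Glucose enters through Slc2a1 (GLUT1), the main carrier of most dividing cells, and Slc2a3 (GLUT3), a high-affinity carrier best known from neurons. Per kilobase of exon, Slc2a1 was 97.4% of their sum in male KO and 98.3% in female KO. Slc2a1 was at 106, 91.2 and 99 CPM in male KO and 190, 178 and 176 CPM in male Y202C, a rise of 1.84-fold (log2 0.88 ± 0.07 SE, adjusted p = 8.19e-11). In the female culture the same mutation went with a fall, from 117, 119 and 111 CPM to 55.4, 61.4 and 49.7 CPM (2.09-fold, log2 −1.06 ± 0.07, adjusted p = 6.25e-12), and all 3 libraries of each mutant lay apart from those of their KO. The male effect minus the female effect was 1.94 ± 0.10 (log2, adjusted p = 3.2e-14).

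Slc2a3 stood out in male Y217C. It was at 5.0, 5.65 and 5.46 CPM in male KO, 8.30, 8.30 and 8.79 CPM in male R172H, 10.3, 11.2 and 9.53 CPM in male Y202C and 22.6, 23.2 and 22.3 CPM in male Y217C. The 4 male lines did not overlap, and the Y217C libraries were 4.22-fold above KO (log2 2.08 ± 0.10, adjusted p = 2.79e-15). In male R172H the rise was 1.57-fold (log2 0.65 ± 0.10, adjusted p = 9.07e-06). Female KO held 3.86, 4.05 and 4.54 CPM, and female Y217C held 4.23, 3.18 and 3.68 CPM, which overlapped (log2 −0.17, adjusted p = 0.17). The Slc2a3 share of the 2 carriers per kilobase rose from 2.58% in male KO to 9.40% ± 0.30 (SD, n = 3) in male Y217C and was between 1.71% and 2.15% on average in the female lines.

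Hexokinase traps glucose as glucose 6-phosphate, with Hk1 as the constitutive and Hk2 as the inducible, HIF-responsive form. The Hk2 level fell in the 3 female mutant lines, from 88.6, 87.3 and 82.5 CPM in KO to 36.3, 35.4 and 39.8 CPM in R172H, 41.8, 43.6 and 37.3 CPM in Y202C and 41.5, 52.5 and 49.2 CPM in Y217C. All 9 female mutant libraries were below the lowest KO library, at log2 −1.21, −1.08 and −0.85 (adjusted p of 1.12e-10, 1.25e-09 and 9.96e-08). In the male lines Hk2 changed less. It was called lower in R172H (log2 −0.29, adjusted p = 0.0198) and higher in Y202C (0.24, adjusted p = 0.0295). The libraries of both lines overlapped those of KO, and Y217C was not called (−0.17). The 3 male effects were each above the female effects of the same mutation, by 0.92, 1.32 and 0.68 on the log2 scale.

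Hk1 instead rose in 2 male lines. It was at 157, 163 and 159 CPM in male KO, 267, 263 and 235 CPM in male Y202C and 323, 309 and 329 CPM in male Y217C (log2 0.68 ± 0.05 and 1.01 ± 0.05). The male Y217C libraries were above all other 21 libraries. In the female lines Hk1 moved little, between log2 −0.15 and 0.19. The share of Hk1 in the sum of both hexokinases per kilobase was 61.9% ± 3.06 in male KO and 54.2% ± 1.32 in female KO, and it was higher on average in each mutant line, from 66.2% in male R172H to 78.5% in male Y217C. Hk1 overlaps the antisense gene Hk1os in its exons, which was called higher in male Y217C and in female R172H, Y202C and Y217C (log2 1.36, 1.56, 0.79 and 1.48), where Hk1 was at 1.01, −0.15, 0.07 and 0.19.

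Phosphofructokinase commits the sugar to glycolysis, and its liver, muscle and platelet subunits are encoded by Pfkl, Pfkm and Pfkp. Pfkl fell in each mutant line, most in male Y202C, from 238, 229 and 231 CPM to 124, 124 and 101 CPM (log2 −1.0 ± 0.09, adjusted p = 2.31e-10). In female R172H it fell from between 216 and 219 CPM to 113, 113 and 130 CPM (log2 −0.87 ± 0.09). Neither mutant line overlapped its KO. Pfkp rose in male Y217C from 88.8, 93.7 and 97.1 CPM to 164, 150 and 158 CPM (log2 0.75 ± 0.05), and it fell in female Y217C from 90.1, 89.2 and 88.4 CPM to 74.0, 70.0 and 73.4 CPM (log2 −0.30 ± 0.05). The difference between these effects was 1.05 ± 0.07 (adjusted p = 5.01e-12).

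The subunit mix shifted with these changes. Per kilobase, Pfkl made 55.8% ± 1.62 of the 3 subunits in male KO and 55.4% ± 0.23 in female KO, so the KO lines were alike. It made 32.1% ± 1.3 in male Y217C, 36.2% ± 1.47 in male Y202C and 35.3% ± 2.06 in female R172H. Pfkm, which was itself called higher in male Y217C and in female R172H and Y202C (log2 0.49, 0.43 and 0.30), made 33.1% in male KO and up to 52.4% ± 1.75 in female R172H. Per kilobase, Pfkm was on average the largest of the 3 in male Y202C and Y217C (47.4% and 48.4%) and in female R172H and Y202C (52.4% and 42.9%). Pfkl was the largest in the other 4 lines. This order depends on the exon lengths used, 6675, 3340 and 13401 bases for Pfkl, Pfkm and Pfkp. These join the exons of all annotated transcripts, and the transcripts present were not determined. The glucose phosphate isomerase gene Gpi1 moved by at most 0.22 on the log2 scale in any comparison.

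The PFKFB enzymes set fructose 2,6-bisphosphate, the strongest activator of phosphofructokinase, and Pfkfb3 and Pfkfb4 are known HIF targets. Pfkfb3 fell in male Y217C from 22.5, 20.4 and 19.5 CPM to 7.09, 7.59 and 8.26 CPM, a 2.72-fold fall (log2 −1.44 ± 0.08, adjusted p = 1.79e-13). The female effect of the same mutation was −0.37. Pfkfb2, the heart type, went in opposite directions by culture with R172H, from 5.89, 5.45 and 5.45 CPM to 3.61, 4.32 and 3.45 CPM in male and from 5.15, 5.03 and 4.92 CPM to 9.09, 9.83 and 9.54 CPM in female cells. The male R172H libraries were all below and the female R172H libraries all above their KO libraries (interaction −1.47 ± 0.17, adjusted p = 5.98e-08). Pfkfb4 changed by at most 0.46, with the largest change in male Y217C.

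Lower glycolysis, from aldolase to pyruvate kinase, held the most abundant members. Per kilobase, Pkm (pyruvate kinase) and Gapdh led in both KO lines, with 516 and 475 CPM per kilobase in male KO and 519 and 503 in female KO, and Epas1 was the lowest member (0.49 and 0.21). Of the 9 genes, 6, 8 and 7 fell and 1, 1 and 1 rose in the male R172H, Y202C and Y217C lines. In the female lines 7, 5 and 6 fell and 2, 1 and 2 rose. Called shares were 77.8%, 100% and 88.9% in the male and 100%, 66.7% and 88.9% in the female lines. Those of all genes were 40.7%, 73% and 70.5% in the male and 69.7%, 68.6% and 56.7% in the female lines. The share in female Y202C was thus near that of all genes. Enolase 1 (Eno1) was among the largest falls in this group, from 1534, 1448 and 1415 CPM in male KO to 658, 612 and 610 CPM in male Y202C (2.34-fold, log2 −1.23 ± 0.08, adjusted p = 5.66e-13). Female Y202C fell by nearly the same amount, from 1673, 1622 and 1582 CPM to 699, 772 and 627 CPM (2.32-fold, log2 −1.22 ± 0.08, adjusted p = 1.3e-12). The difference between the 2 effects was −0.01 ± 0.11 on the log2 scale and was not called. In the other 4 mutant lines Eno1 fell by 0.48 to 0.85 on the log2 scale, and no mutant library reached the KO libraries of its sex.

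The commonly used reference gene Gapdh was among the genes that moved. It was at 2027, 1969 and 1892 CPM in male KO, 1090, 1028 and 990 CPM in male Y202C and 1210, 1195 and 1162 CPM in male Y217C, at log2 −0.92 ± 0.09 and −0.72 ± 0.09. In female Y202C its libraries were spread from 1538 to 2136 CPM and overlapped the KO libraries at 2036 to 2099 CPM (log2 −0.19, adjusted p = 0.0626). Pkm was lowest in female Y202C, at 1394, 1502 and 1242 CPM against 2617, 2609 and 2559 CPM in KO (log2 −0.91 ± 0.08), and in male Y202C it changed by −0.35. Triose phosphate isomerase (Tpi1) fell in male Y202C (log2 −0.83 ± 0.07) and not detectably in female Y202C (0.08, adjusted p = 0.285), and the difference of −0.91 was called (adjusted p = 1.24e-08). Aldoa, Pgk1 and Pgam1 (aldolase A, phosphoglycerate kinase and phosphoglycerate mutase) moved by −0.06 to −0.69, with 2 of their 18 values, Pgk1 and Pgam1 in male R172H, not called.

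Enolase 2 (Eno2), the neuronal enolase, went the other way from Eno1. It was at 6.95, 8.20 and 9.20 CPM in female KO, and at 23.4, 19.0 and 20.8 CPM in R172H, 19.8, 20.9 and 19.7 CPM in Y202C and 16.8, 12.1 and 15.6 CPM in Y217C. All female mutant libraries were above the KO libraries, 2.60-fold in R172H (log2 1.38 ± 0.12, adjusted p = 3.82e-10), 2.48-fold in Y202C (1.31 ± 0.12, adjusted p = 1.37e-09) and 1.83-fold in Y217C (0.87 ± 0.12, adjusted p = 1.68e-06). In male cells it rose from 8.72, 10.2 and 11 CPM to 17.4, 19.9 and 17.1 CPM in R172H (log2 0.86 ± 0.12, adjusted p = 3.43e-06) and by 0.89 in Y202C, while male Y217C overlapped KO (0.12). Because Eno1 is far more abundant, Eno2 remained between 0.57% and 3.25% of the sum of both enolases per kilobase.

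Aldolase C (Aldoc), a brain aldolase that is also one of the astrocyte markers, had low counts and the most divided pattern of the group. It was at 2.42, 3.51 and 3.24 CPM in male KO and at 0.88, 1.36 and 1.08 CPM in male R172H (2.79-fold lower, log2 −1.48 ± 0.21, adjusted p = 7.15e-06). In female KO it was at 1.49, 1.43 and 1.97 CPM and in female R172H at 5.16, 4.09 and 3.41 CPM (2.57-fold higher, log2 1.36 ± 0.21, adjusted p = 2.86e-06). In neither culture did the mutant overlap the KO. Male Y202C was the lowest line, at 0.95, 0.61 and 0.76 CPM (log2 −1.97 ± 0.22), and male Y217C the highest, at 6.34, 4.80 and 6.16 CPM (log2 0.91 ± 0.20). The 10 astrocyte markers, Aldoc among them, did not move as one. In male Y202C 7 of them fell and 3 rose (Aldh1l1, Aqp4 and Slc1a2, at log2 5.47, 3.99 and 1.64), and their sum went from 387 to 410 CPM in male KO to 227 to 240 CPM, with Gja1 and Sox9 lower (−1.21 and −0.92). In male Y217C 8 rose and none fell, and the sum was 561 to 607 CPM. In male R172H Aldh1l1, Aqp4, Slc1a3, Slc1a2, Aldoc and Glul fell and none rose. The sum there, at 368 to 418 CPM, overlapped male KO. In female R172H 4 rose and 2 fell (Gja1 and Glul, −0.50 and −0.47), and the sum went from 391 to 416 CPM in female KO to 650 to 685 CPM, of which the glutamate transporter Slc1a3 made 271 to 287 CPM. The part of cell composition or state in the Aldoc values was not tested.

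The lactate and pyruvate genes held the largest changes of all members. Slc16a3 encodes MCT4, a low-affinity lactate exporter of glycolytic cells, and lies at chr11:120948480-120960868 (plus strand). It was at 138, 124 and 133 CPM in male KO and 22.1, 18.8 and 21.7 CPM in male R172H. It was at 12.3, 11.1 and 9.47 CPM in male Y202C and 3.86, 3.97 and 3.76 CPM in male Y217C. The 4 male lines did not overlap, and KO was 6.30-fold above R172H (log2 −2.66 ± 0.10, adjusted p = 4.2e-16), 11.9-fold above Y202C (−3.58 ± 0.10, adjusted p = 4.2e-19) and 34.0-fold above Y217C (−5.09 ± 0.11, adjusted p = 4.45e-21).

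In the female culture Slc16a3 was at 123, 124 and 120 CPM in KO, which was close to male KO (log2 difference 0.11 ± 0.09, adjusted p = 0.406). It was at 31.5, 31.5 and 40.3 CPM in R172H, 11.9, 13.1 and 10.3 CPM in Y202C and 48.9, 54.6 and 52.7 CPM in Y217C. The falls were 3.54-fold in R172H (log2 −1.82 ± 0.09, adjusted p = 2.27e-14), 10.4-fold in Y202C (−3.38 ± 0.10, adjusted p = 2.36e-18) and 2.35-fold in Y217C (−1.23 ± 0.09, adjusted p = 9.24e-11). The order of the mutants therefore differed by culture, with Y217C the lowest male line and the highest female mutant line. The male effect minus the female effect was −3.86 ± 0.14 for Y217C (adjusted p = 9.17e-17) and −0.83 ± 0.13 for R172H (adjusted p = 8.44e-06), and for Y202C the difference of −0.20 ± 0.14 was not called (adjusted p = 0.203).

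Slc16a1, which encodes the widely expressed carrier MCT1, changed far less. It was at 58.2, 53.1 and 57.1 CPM in male KO and at 44.6, 50.1 and 45 CPM in male Y217C (log2 −0.27 ± 0.07), and its largest change was −0.45 in female Y202C. The mix of both carriers per kilobase was turned over. Slc16a3 made 66.1% ± 0.23 (SD, n = 3) of the sum in male KO and 60.8% ± 0.83 in female KO, and it was the smaller part in all 6 mutant lines, with 22.0% ± 1.11, 14.7% ± 0.77 and 6.47% ± 0.26 in male R172H, Y202C and Y217C and 34.4% ± 2.56, 17.0% ± 1.63 and 42.8% ± 0.62 in the female lines. The plot of the lactate genes shows these levels by library.

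**Figure D2:**
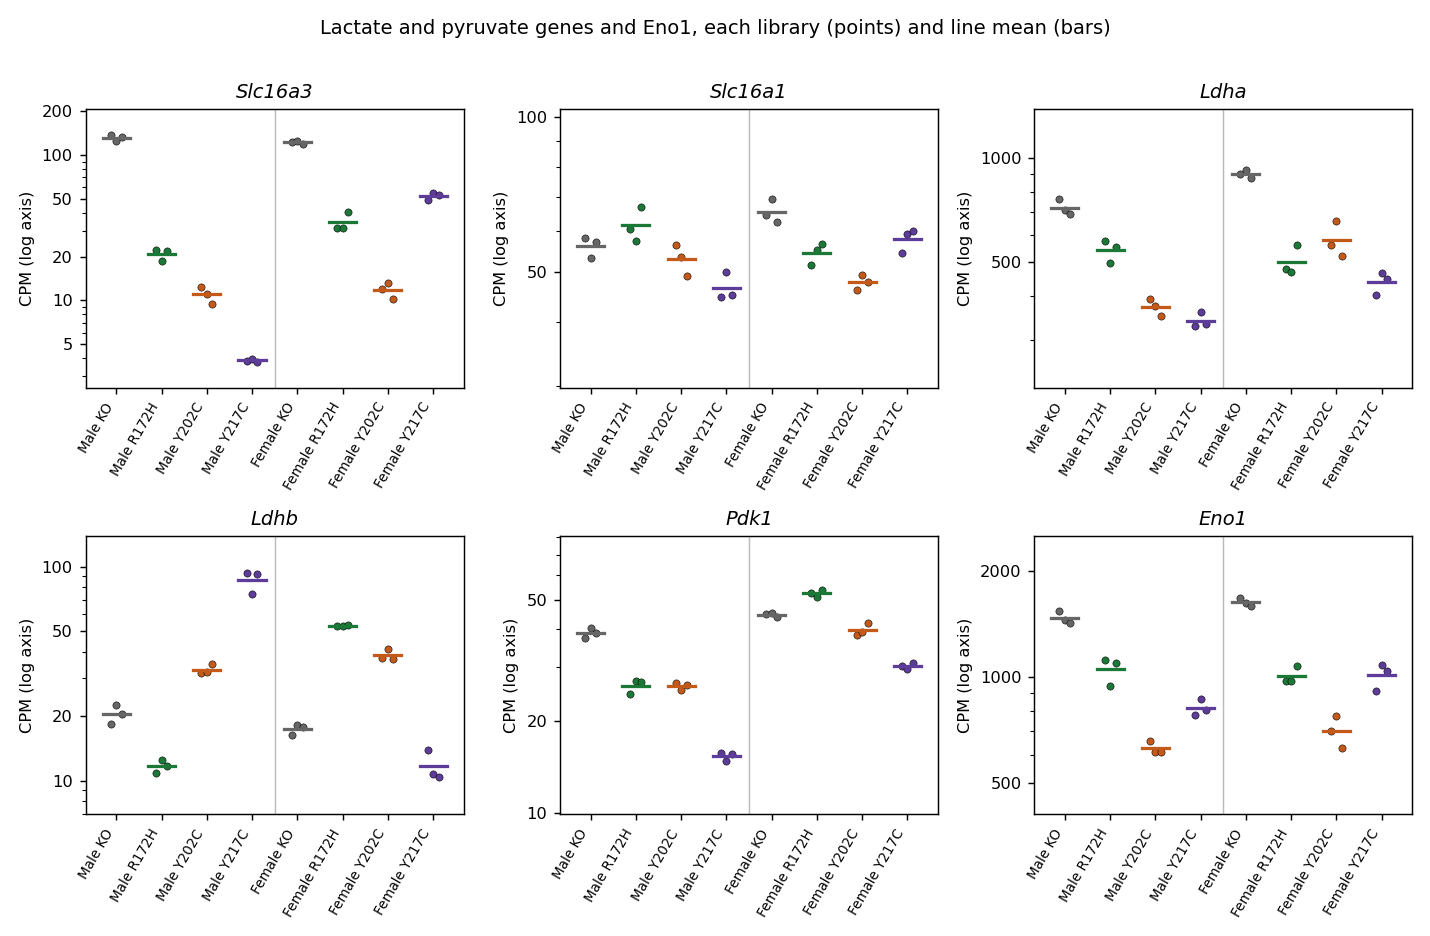
CPM on a log axis for 4 lactate genes (Slc16a3, Slc16a1, Ldha, Ldhb), the pyruvate dehydrogenase kinase Pdk1 and Eno1 in the 8 lines, with points for the 3 libraries and a bar for the line mean, male lines left of the grey line. Slc16a3 fell from a mean of 132 CPM in male KO to 3.86 CPM in male Y217C and to 52.1 CPM in female Y217C, while Ldhb was highest in male Y217C (86.5 CPM).

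Lactate dehydrogenase interconverts pyruvate and lactate. The A subunit (Ldha, a HIF target) is the form of glycolytic tissues and the B subunit (Ldhb) prevails where lactate is oxidised, as in heart. Ldha fell in each mutant line, from 760, 707 and 691 CPM in male KO to 578, 499 and 552 CPM in R172H, 392, 374 and 350 CPM in Y202C and 327, 361 and 332 CPM in Y217C. In female cells it fell from 899, 921 and 873 CPM in KO to 478, 470 and 561 CPM in R172H, 563, 658 and 521 CPM in Y202C and 403, 467 and 448 CPM in Y217C. No mutant library overlapped the KO libraries of its sex, and the log2 changes ran from −0.41 in male R172H to −1.08 ± 0.08 in male Y217C and −1.03 ± 0.08 in female Y217C. For Y217C the 2 cultures differed by −0.05 ± 0.11, with an adjusted p of 0.728.

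Ldhb went up or down depending on the line. In male cells it was at 18.3, 22.5 and 20.5 CPM in KO, 10.8, 12.5 and 11.7 CPM in R172H, 32.0, 32.1 and 34.9 CPM in Y202C and 92.8, 74.6 and 92.0 CPM in Y217C. The 4 male lines did not overlap, and Y217C was 4.23-fold above KO (log2 2.08 ± 0.10, adjusted p = 2.03e-15). In female cells it was at 16.4, 18.1 and 17.8 CPM in KO, 52.5, 52.6 and 53.3 CPM in R172H, 37.3, 41.3 and 37.1 CPM in Y202C and 13.9, 10.8 and 10.4 CPM in Y217C. Here R172H was the highest line, 3.03-fold above KO (log2 1.60 ± 0.10, adjusted p = 3.79e-13), and Y217C the lowest (log2 −0.57 ± 0.10, adjusted p = 2.94e-05). Y202C alone rose in both cultures, by 0.69 and 1.14.

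The Ldhb share of both subunits per kilobase followed. Its size depends on the exon lengths used, 3310 bases for Ldha and 1570 for Ldhb, which join the exons of all annotated transcripts. The share was 5.67% ± 0.74 in male KO and 3.94% ± 0.21 in female KO. It reached 34.9% ± 3.92 in male Y217C, 18.2% ± 1.32 in female R172H, 15.8% ± 1.42 in male Y202C and 12.3% ± 0.71 in female Y202C, and it stayed at 4.36% ± 0.61 in male R172H and 5.37% ± 1.22 in female Y217C. A processed pseudogene, Ldha-ps2, had 141 to 638 counts per library and at most 5.89 CPM as a line mean.

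**Figure D3:**
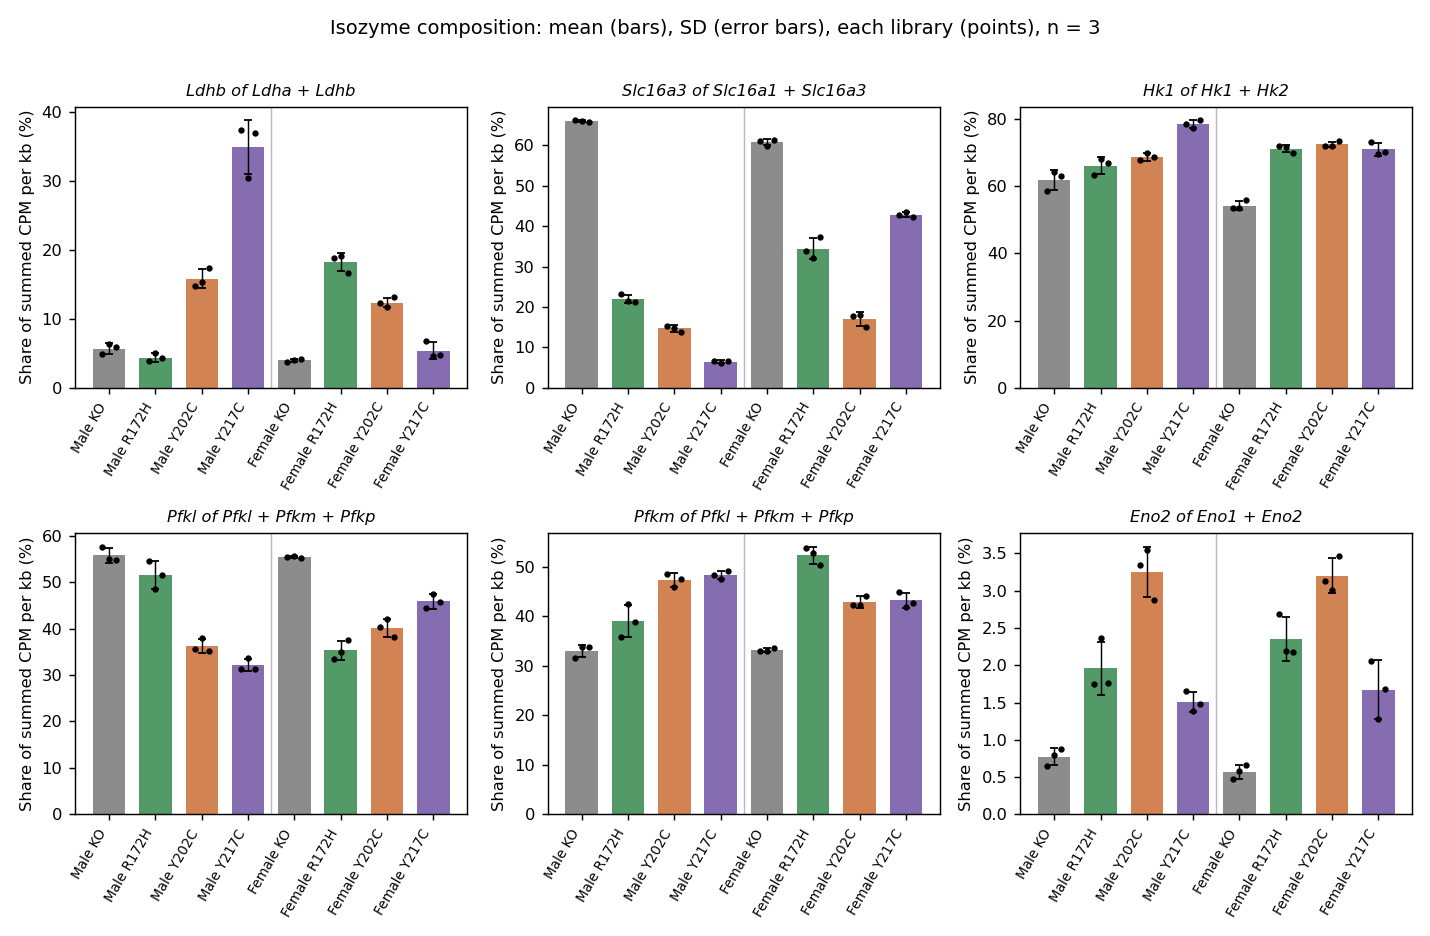
Share of one isozyme gene in the summed CPM per kilobase of its family, in percent, for 8 lines with bars for the mean, error bars for the SD and points for the 3 libraries. Lengths join the exons of all annotated transcripts of a gene, and the percentages depend on them. Slc16a3 was the larger part of the lactate carriers only in the KO lines (66.1% and 60.8%), Pfkl fell from 55.8% to as low as 32.1%, and Ldhb reached 34.9% in male Y217C.

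Pdk1, a HIF target whose kinase keeps pyruvate out of mitochondria, was 37.3, 40.2 and 38.9 CPM in male KO and 15.8, 14.9 and 15.6 CPM in male Y217C (log2 −1.33 ± 0.05, adjusted p = 9.96e-17). It was 24.5, 27.1 and 26.8 CPM in male R172H (−0.57) and 26.6, 25.2 and 26.3 CPM in male Y202C (−0.58). In the female lines it rose in R172H, from 44.8, 45.2 and 44.0 CPM to 52.6, 51.1 and 53.9 CPM (0.23 ± 0.05), and it fell by 0.17 in Y202C and 0.56 in Y217C. Each called line was apart from its KO, and the male effect minus the female effect was −0.81 for R172H, −0.41 for Y202C and −0.77 for Y217C.

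The hypoxia genes begin with the HIF subunits and the prolyl hydroxylases that control them. Hif1a is regulated chiefly through protein stability, and its RNA moved little. It was at 150, 149 and 151 CPM in male KO, 106, 114 and 140 CPM in male Y202C and 112, 104 and 106 CPM in male Y217C (log2 −0.32 and −0.48). In female cells it was at 138, 146 and 135 CPM in KO, 186, 150 and 190 CPM in Y202C and 164, 170 and 167 CPM in Y217C (0.33 and 0.26), so both mutants were below KO in the male and above it in the female culture, with interactions of −0.65 ± 0.12 and −0.74 ± 0.12. Epas1, which encodes HIF-2α, was the least abundant member per kilobase in either KO line. It was at 1.05, 1.17 and 1.26 CPM in female KO and 2.97, 2.46 and 3.71 CPM in female Y202C (2.64-fold, log2 1.4 ± 0.16, adjusted p = 7.6e-08), with 1.60, 1.72 and 2.30 CPM in female Y217C (0.69 ± 0.17, adjusted p = 0.00115). In male cells it was at 2.61, 2.62 and 3.0 CPM in KO and fell in R172H to 1.06, 1.28 and 1.16 CPM (log2 −1.24 ± 0.16). Each of these mutants lay apart from its KO.

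Egln3 encodes the prolyl hydroxylase PHD3, itself a HIF target, and lies at chr12:54178981-54203860 (minus strand). It was at 21.2, 20.7 and 19.2 CPM in male KO, 19.0, 17.1 and 20.6 CPM in male R172H, 2.30, 1.61 and 2.26 CPM in male Y202C and 5.54, 4.95 and 4.85 CPM in male Y217C. R172H overlapped KO, and Y202C was 9.84-fold below it (log2 −3.30 ± 0.10, adjusted p = 2.28e-18). In female cells it was at 36.3, 36.2 and 37.4 CPM in KO, 13.1, 13.2 and 14.2 CPM in R172H, 20.8, 19.9 and 19.2 CPM in Y202C and 12.5, 14.9 and 13.3 CPM in Y217C. All 3 female mutants were below KO, at log2 −1.44 ± 0.09 (adjusted p = 6.41e-13), −0.88 ± 0.09 and −1.44 ± 0.09 (adjusted p = 2.94e-12). Egln1, for the main oxygen sensor PHD2, moved by at most 0.49, in female Y217C.

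Among the 9 other HIF targets, 4 rose in male Y202C (Ndrg1, Car9, Ero1l and Vegfa). Ndrg1, a stress-responsive gene of differentiation and metastasis, was at 52.6, 63.1 and 57.8 CPM in male KO, 490, 506 and 460 CPM in male Y202C and 195, 161 and 190 CPM in male Y217C. The libraries of the 3 lines were well apart, 8.39-fold higher in Y202C (log2 3.07 ± 0.09, adjusted p = 5.59e-19) and 3.14-fold in Y217C (1.65 ± 0.09). In female cells Ndrg1 was at 90.0, 90.5 and 95.4 CPM in KO and 74.5, 89.3 and 79.5 CPM in Y202C, with a log2 change of −0.18 that was not called (adjusted p = 0.0611).

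Car9, for carbonic anhydrase IX, which acidifies the outside of hypoxic cells, was at 2.30, 1.92 and 1.95 CPM in male KO, 11.4, 11.1 and 11.9 CPM in male Y202C and 4.59, 3.84 and 4.18 CPM in male Y217C. Its rises were 5.58-fold (log2 2.48 ± 0.12, adjusted p = 8.55e-15) and 2.05-fold (1.04 ± 0.12). In female Y202C it was at 2.0, 1.81 and 1.75 CPM against 2.30, 2.54 and 2.64 CPM in KO, and here it was lower (−0.43 ± 0.13, adjusted p = 0.00518). Car9 shares exon sequence with Gm12454 on the other strand, and Gm12454 rose by 0.86 in male Y202C.

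Ero1l, for an oxidase that forms disulfide bonds in the endoplasmic reticulum, was at 69.8, 76.9 and 83.4 CPM in male KO and 280, 276 and 333 CPM in male Y202C (3.86-fold, log2 1.95 ± 0.08, adjusted p = 6.68e-16). In female Y202C it fell from 86.4, 93.6 and 91.3 CPM to 54.4, 52.3 and 55.3 CPM (−0.74 ± 0.08, adjusted p = 3.39e-08). Vegfa, the main growth factor for blood vessels, had the same split, rising from 208, 216 and 220 CPM to 367, 364 and 342 CPM in male (0.74 ± 0.05) and falling from 298, 301 and 296 CPM to 173, 168 and 161 CPM in female Y202C (−0.83 ± 0.05). For both genes each mutant lay apart from its KO, and the male effect was higher than the female one by 2.69 ± 0.12 for Ero1l and 1.57 ± 0.07 for Vegfa.

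Of the same 9 genes, 3 fell in male Y202C (P4ha1, P4ha2 and Ankrd37). P4ha2, a collagen prolyl hydroxylase, was at 96.8, 102 and 105 CPM in male KO, 37.9, 35.2 and 36.7 CPM in male Y202C and 24.6, 26.2 and 23.1 CPM in male Y217C (log2 −1.47 ± 0.05 and −2.04 ± 0.06). It rose in female R172H to 124, 121 and 128 CPM and in female Y202C to 129, 141 and 125 CPM, from 85.3, 85.8 and 87.5 CPM in KO (0.53 ± 0.05 and 0.61 ± 0.05). The 3 groups in male cells, and the female KO and mutant groups, did not overlap. P4ha1, its relative, fell by 0.62 in male Y202C. The fibroblast and meningeal markers, which include the collagens Col1a1, Col1a2 and Col3a1, summed to 27439 to 32913 CPM in male KO, 8691 to 10592 CPM in male Y202C and 17445 to 18064 CPM in male Y217C. In the female lines they summed to 23685 to 25631 CPM in KO, 41694 to 48670 CPM in R172H and 34550 to 40846 CPM in Y202C, the lines where P4ha2 was higher (Col3a1 at log2 2.12 and 1.27). The sums are mostly Col1a1 and Col1a2 (means of 17294 and 10262 CPM in male KO). In male Y202C these and Col3a1 fell, Dcn rose (log2 0.83), and Pdgfrb and Lum were not called. In male Y217C Col1a1, Col1a2, Col3a1 and Dcn fell, Pdgfrb rose (log2 1.56), and Lum was not called. In female R172H and Y202C each marker of the list rose. The part of these markers in the P4ha1 and P4ha2 values and in the other values of these lines was not tested.

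Adm, for the vasodilator adrenomedullin, lies at chr7:110627661-110629820 (plus strand). It was at 84.7, 77.2 and 78.3 CPM in male KO and 11.7, 14.4 and 13.2 CPM in male Y217C, a 6.11-fold fall (log2 −2.61 ± 0.07, adjusted p = 2.7e-19), while male Y202C overlapped KO (−0.08). In female cells it was at 106, 98.3 and 97.9 CPM in KO, 168, 170 and 148 CPM in R172H, 36.7, 35.4 and 34.5 CPM in Y202C and 145, 142 and 149 CPM in Y217C. Female R172H and Y217C were above KO (0.69 ± 0.07 and 0.53 ± 0.07) and female Y202C was 2.84-fold below it (−1.50 ± 0.07, adjusted p = 6.49e-15). The line with the lowest Adm was thus a different mutation in each culture.

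Ankrd37, a small HIF target with few reads (36 to 223 counts per library), was at 2.19, 1.77 and 1.96 CPM in female KO, 0.911, 0.778 and 0.907 CPM in R172H, 1.05, 1.11 and 0.985 CPM in Y202C and 1.12, 1.12 and 1.48 CPM in Y217C. Each female mutant was lower and apart from KO (log2 −1.19, −0.92 and −0.68). In male cells it fell in Y202C and Y217C (−1.17 and −0.91) and overlapped KO in R172H (−0.18). Its exons overlap Ufsp2 and Lrp2bp on the other strand, and Lrp2bp also fell in the 3 female lines (−1.30, −1.37 and −0.73). The mitophagy receptor gene Bnip3 moved by at most 0.46, in male Y217C.

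**Figure D4:**
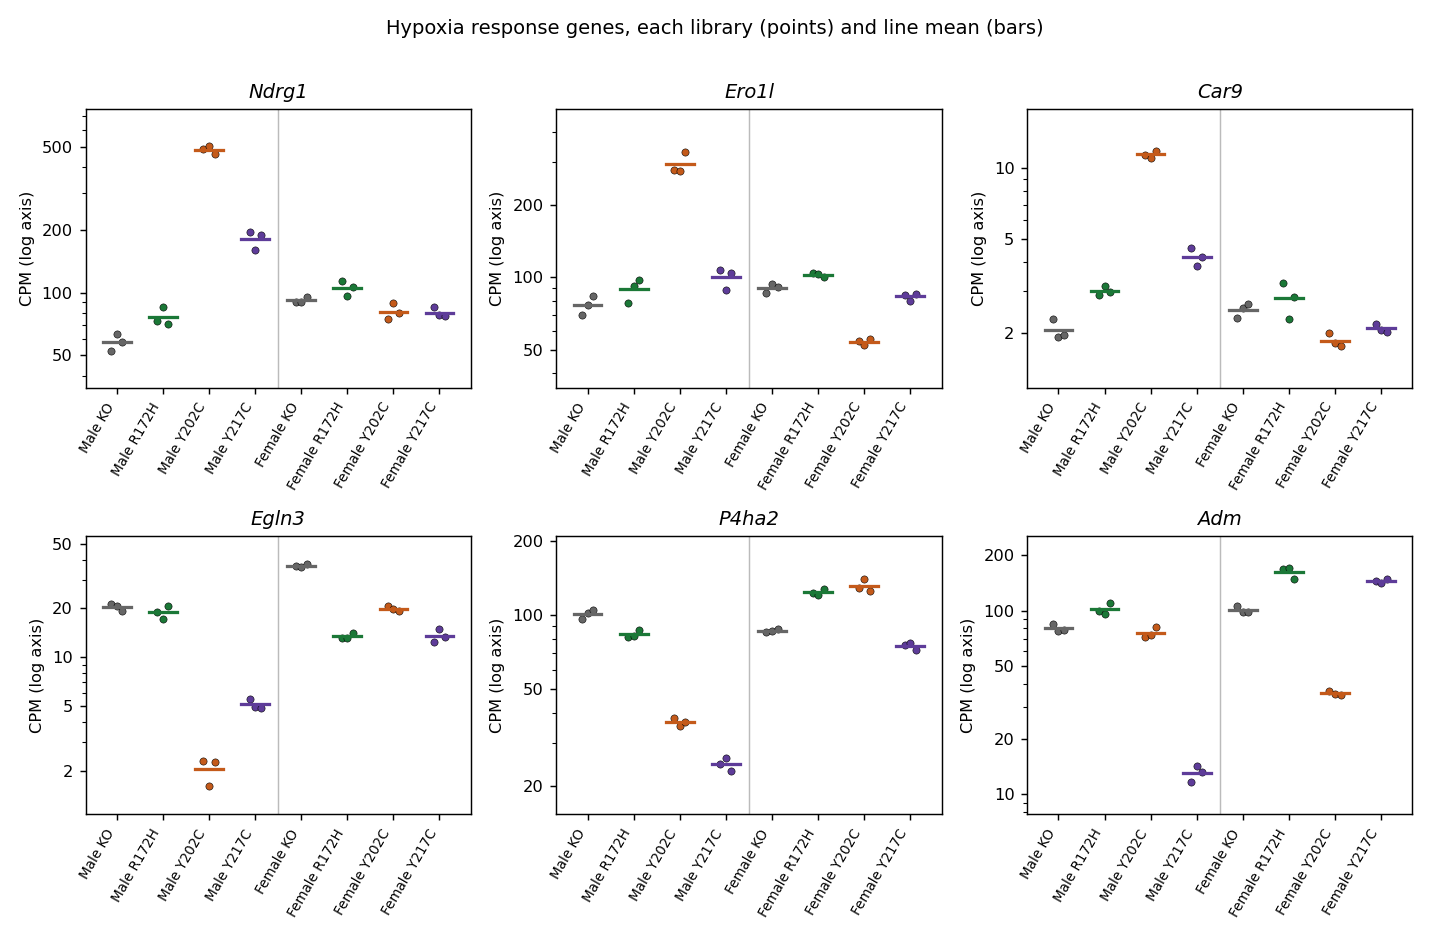
CPM on a log axis for 6 hypoxia response genes in the 8 lines, with points for the 3 libraries and a bar for the line mean, male lines left of the grey line. In male Y202C, Ndrg1, Ero1l and Car9 were the highest (485, 296 and 11.4 CPM on average) and Egln3 the lowest (2.06 CPM), and Adm was lowest in male Y217C (13.1 CPM).

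As a sum over the 13 hypoxia members, male Y202C was the highest line, at 1641, 1658 and 1699 CPM against 1073, 1110 and 1134 CPM in male KO. Female Y202C was lower than its KO, at 996, 970 and 986 CPM against 1187, 1221 and 1191 CPM in female KO, and it overlapped male Y217C, at 1027, 942 and 1006 CPM. The other mutant lines lay between 942 and 1320 CPM in each library. In male Y202C Ndrg1 alone made 460 to 506 CPM of the sum, and by number 7 of the 13 members fell and 4 rose in male Y202C.

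The effect of a mutation was then compared between the cultures with an interaction test, the male effect minus the female effect. For R172H, 24 members passed (12 more positive and 12 more negative in the male culture), where 58% of all genes passed. For Y202C it was 29 (12 and 17, all genes 68%), and for Y217C 26 (12 and 14, all genes 54.8%). In the scatter of male against female effects, Slc16a3 was near the diagonal for Y202C and far below it for Y217C. Eno1, Gpi1, Aldoa and Bnip3 were not called in any of the 3 tests, with differences between −0.16 and 0.21 for Eno1 (SE 0.11) and between −0.02 and 0.11 for Aldoa (SE 0.10).

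**Figure D5:**
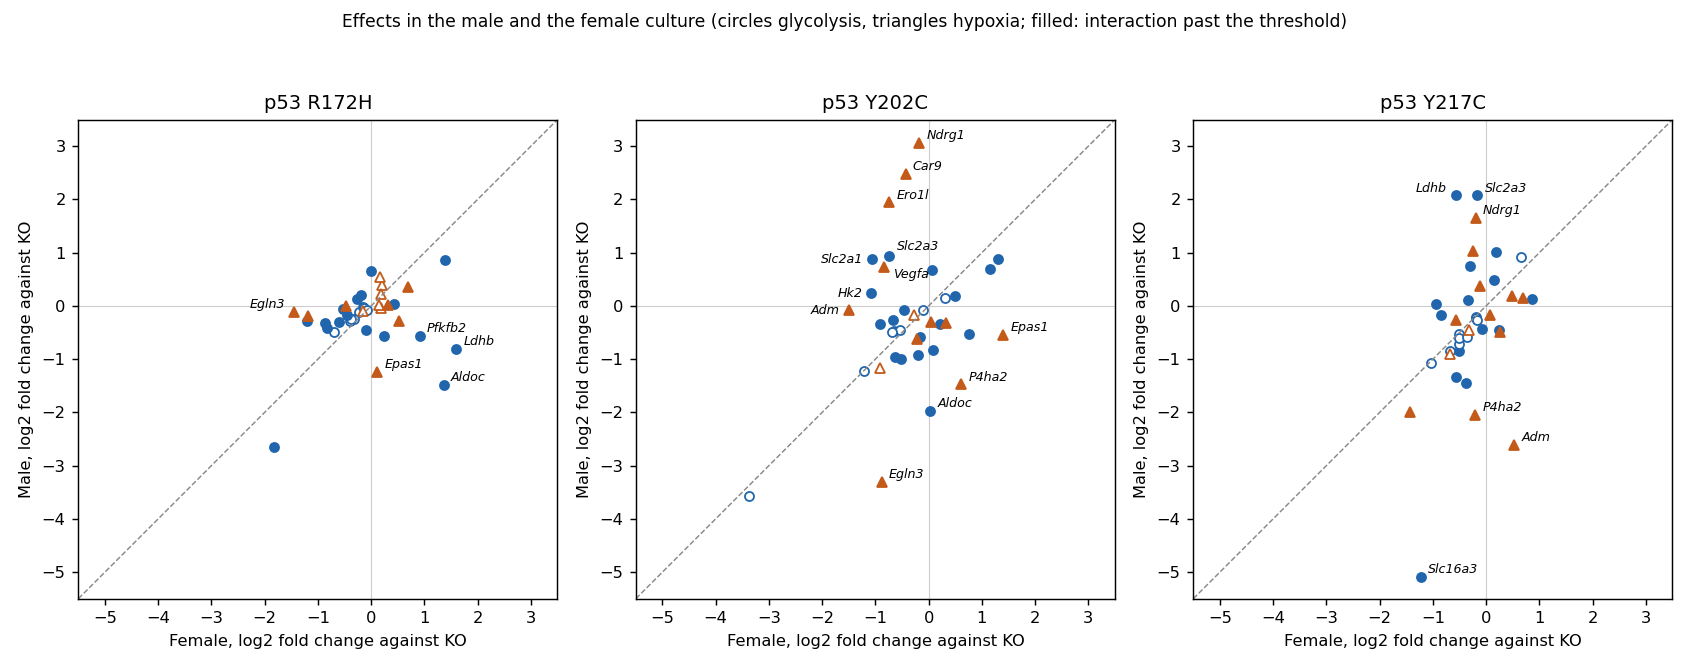
Log2 fold change against KO in the female culture (horizontal) and the male culture (vertical) for R172H, Y202C and Y217C, with 1 point per member, circles for glycolysis and triangles for hypoxia genes, filled where the interaction was called, and a dashed line where both effects are equal. Gene names mark called differences above 1.3 on the log2 scale, which reached 3.25 for Ndrg1 with Y202C and −3.86 for Slc16a3 with Y217C.

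The 2 KO lines also differed from each other, which sets the base of these comparisons. Between them 21 members were called, 6 higher and 15 lower in the male line, where 31.1% of all genes were called. The largest differences were Epas1 (2.74 ± 0.22 CPM in male and 1.16 ± 0.10 CPM in female KO, SD, n = 3, log2 1.25) and Aldoc (3.06 ± 0.57 and 1.63 ± 0.29 CPM, log2 0.91) on the male side. On the female side they were Egln3 (20.3 ± 1.02 in male and 36.7 ± 0.65 CPM in female KO, log2 −0.85), Ndrg1 (57.8 ± 5.24 and 92.0 ± 2.98 CPM, −0.67) and Ankrd37 (1.25 ± 0.12 and 1.97 ± 0.21 CPM, −0.66). Of the 13 hypoxia members 11 were called, against 10 of the 25 glycolysis members.

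Other genes of these pathways were counted from lists that were not trimmed by their values but were chosen with earlier results of these data known. Of 15 regulators of the HIF pathway, 8, 10 and 14 were called in male R172H, Y202C and Y217C and 9, 8 and 9 in the female lines. These were 53.3%, 66.7%, 93.3%, 60%, 53.3% and 60% of the list, where 40.7%, 73%, 70.5%, 69.7%, 68.6% and 56.7% of all genes were called, so that 3 of the 6 shares lay below the background. The HIF co-regulator Cited2 fell most, from 302, 270 and 247 CPM in male KO to 104, 101 and 99.8 CPM in male Y217C (log2 −1.43). The ubiquitin ligase gene Siah1a fell in female Y202C (−1.19), the ligase scaffold Cul2 rose in male Y202C (1.19) and the HIF partner Arnt2 rose in male Y217C (1.05).

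Of 33 further HIF target genes, 15, 28 and 24 were called in the male lines (10, 16 and 14 of them lower) and 29, 17 and 21 in the female lines (17, 12 and 13 lower). Called shares were 45.5%, 84.8% and 72.7% in the male and 87.9%, 51.5% and 63.6% in the female lines, of which female Y202C was below its background of 68.6% and male Y217C near its 70.5%. The calcium and phosphate hormone gene Stc1 was at 0.65, 0.77 and 0.63 CPM in female KO and 51.6, 51.4 and 46.4 CPM in female R172H (73.4-fold, log2 6.20 ± 0.24, adjusted p = 8.11e-17), with a fall in all 3 male mutant lines (−0.81 to −1.60). Endothelin 1 (Edn1), a vasoconstrictor, was at 2.37, 1.74 and 1.79 CPM in male KO and 48.0, 53.7 and 60.4 CPM in male Y202C (27.7-fold, log2 4.79 ± 0.15), with 16.3, 15 and 12 CPM in female R172H (2.70). The lipase inhibitor gene Angptl4 fell from 19.5, 17.9 and 17.0 CPM in male KO to 0.42, 0.70 and 0.83 CPM in male Y217C (28.0-fold, log2 −4.81 ± 0.18), and it rose in female Y202C (1.18). Selenbp1 was at 3.0, 2.11 and 2.42 CPM in female R172H and at 0.06, 0.19 and 0.10 CPM in female KO (log2 4.48 ± 0.44).

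Of 24 other genes of glycolysis and pyruvate metabolism, 11, 20 and 18 were called in the male lines (6, 11 and 11 of them higher) and 21, 15 and 11 in the female lines (17, 8 and 6 higher). Called shares were 45.8%, 83.3% and 75% in the male and 87.5%, 62.5% and 45.8% in the female lines, below the background of 68.6% in female Y202C and of 56.7% in female Y217C. Higher and lower calls differed by 1 gene in male R172H and in female Y202C and Y217C. The high-affinity lactate carrier Slc16a7 (MCT2) fell in the 3 female lines, most in Y202C (log2 −3.47, from 1.47 to 0.13 CPM on average). The glucose transporter Slc2a10 fell in male Y202C and Y217C (−2.84 and −2.92), the pyruvate dehydrogenase kinase Pdk4 fell most in female Y217C (−2.76), and the D-lactate dehydrogenase Ldhd rose most in female Y202C (2.22).

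Of the 8 pentose phosphate genes, which branch from glucose 6-phosphate to make NADPH and ribose, 5, 8 and 7 were called in the male (62.5%, 100% and 87.5%) and 6, 6 and 5 in the female lines (75%, 75% and 62.5%). The male shares were above those of all genes (40.7%, 73% and 70.5%), and the female shares were near them (69.7%, 68.6% and 56.7%). G6pdx, for the entry enzyme, rose most in female Y202C, from 77.5 to 150 CPM on average (log2 0.96), and Rpia rose most in male Y202C (1.08), while Pgd and H6pd fell most in male Y202C and male Y217C (−0.75 and −0.73). Of 18 genes of the tricarboxylic acid cycle, 11, 14 and 10 were called in the male (61.1%, 77.8% and 55.6%) and 12, 15 and 12 in the female lines (66.7%, 83.3% and 66.7%), below the share of all genes in male Y217C (70.5%) and female R172H (69.7%), and none exceeded 0.82 in size. The most changed were Ogdh (−0.82, male Y202C), Fh1 (−0.81, female Y217C), Idh3g (0.76, male Y217C) and Idh3a (−0.72, female Y202C). Of 7 metabolic genes linked to p53, the most changed were Gls2 (−1.40, male Y202C), Sesn1 (1.38, male Y217C), Sesn2 (1.38, male Y202C) and Lpin1 (−1.30, male Y202C), and 3, 6 and 5 were called in the male (42.9%, 85.7% and 71.4%) and 6, 6 and 5 in the female lines (85.7%, 85.7% and 71.4%), where male R172H and male Y217C were near the shares of all genes (40.7% and 70.5%).

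Some members share reads or exon sequence with other genes. The strand setting of the counting is not given in the sources used here, so overlapping genes on opposite strands could have lost reads to the unambiguous-read rule. This applies to Hk1, Gpi1, Pfkm, Pfkp, Pfkfb2, Aldoa, Tpi1, Gapdh, Ankrd37 and Car9, each with an overlapping gene in the table. Slc2a1, Hif1a, Bnip3 and Ndrg1 overlap M21 genes of the other strand that the count table does not list. Pfkm, Pfkfb2, Pkm and Hif1a overlap such unlisted genes on their own strand, where reads can be lost under any strand setting. Whether the annotation used for counting held these genes was not determined. The pseudogenes Pgam1-ps1 and Pgam1-ps2 and the copy Eno1b had at most 549, 718 and 1444 counts in a library, and the Eno1b mean of 14.2 CPM in male Y217C stood against 815 CPM for Eno1. Calls near the threshold depended on single libraries: Aldoc in female Y217C (log2 0.66, adjusted p = 0.0102) was not called without that line's replicate 1, when it was 0.46 (adjusted p = 0.0906). P4ha1 in male Y217C (−0.17) was not called without male KO replicate 3 (−0.13, adjusted p = 0.0613), and Bnip3 in female Y202C was not called without that line's replicate 2 (−0.23, adjusted p = 0.0507).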

How the data were processed

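Polyadenylated RNA of 24 libraries was sequenced after SMARTer amplification. The authors aligned the reads with STAR 2.5.1a and counted unique, unambiguous reads per Ensembl gene with Subread featureCounts, and the deposited values are these raw counts for 14427 genes, of which 14350 were named by GENCODE M21 and 77 were not. The strand setting is not given in the sources used here. Every gene had more than 1 CPM in at least 3 libraries. Totals ran from 52787288 to 136503809 counts, so that depth limits only the lowest members.

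From these counts, 1 mean per line was fitted over all 24 libraries with edgeR 4.0.16 (R 4.3.3, TMM scaling, quasi-likelihood test, genes above 1 CPM in at least 2 libraries, Benjamini-Hochberg adjustment over all genes, threshold 0.05). Each mutant line was compared with the KO line of its sex, the male effect with the female effect, and the KO lines with each other. Standard errors (SE) are of log2 fold changes. Levels per kilobase divide CPM by the joined length of the exons of all annotated transcripts of a gene. Levels and shares compared between genes depend on this length, and the transcripts present were not determined. Alternatives were limma 3.58.1 (voom with quality weights, the study's test), DESeq2 1.42.0, its size factors, other filters and thresholds, thinning of counts, only the lines compared, a replicate block and leaving out each replicate.

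The members and lists were chosen with earlier results of these data known. All members are named by role, and the 2 largest rises and 2 largest falls of each comparison are given with full statistics, with up to 4 genes of each other list. Start site sequences are from RefSeq on GRCm38.p6, and figures were drawn with matplotlib 3.10.9.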

Additional observations from a re-analysis of the deposited data

Results flagged for a closer look

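The values here are male effects minus female effects of the same mutation on the log2 scale, each past the threshold in edgeR's test of the difference itself, for the 2 largest differences in each direction. Lines of 3 libraries were not tested for outlying libraries. Culture and sex cannot be told apart, and no explanation was tested. Among the genes named here, Aldoc was higher and Ankrd37, Egln3 and Ndrg1 were lower in male than in female KO. These were among the largest differences between the KO lines, given above. The KO level enters each value here, and its part was not tested.

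For R172H, the differences were −2.84 for Aldoc (adjusted p = 1.79e-08), −2.41 for Ldhb (adjusted p = 2.68e-13), 1.00 for Ankrd37 (adjusted p = 0.00178) and 1.34 for Egln3 (adjusted p = 2.3e-09). Ldhb fell in the male and rose in the female line, and Egln3 fell in the female line, while the male line overlapped KO.

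For Y202C, they were −2.42 for Egln3 (adjusted p = 1.19e-13), −2.08 for P4ha2 (adjusted p = 3.71e-17), 2.91 for Car9 (adjusted p = 5.52e-13) and 3.25 for Ndrg1 (adjusted p = 6.38e-17). Trp53 was at 2324 CPM on average in male and 593 CPM in female Y202C, and its part in these differences was not tested.

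For Y217C, they were −3.86 for Slc16a3 (adjusted p = 9.17e-17), −3.14 for Adm (adjusted p = 6.68e-18), 2.24 for Slc2a3 (adjusted p = 1.48e-12) and 2.65 for Ldhb (adjusted p = 3.86e-14). Trp53 was at 1215 CPM in male and 3709 CPM in female Y217C, and its part was not tested either.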

How the results depend on the processing

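Of the 228 member values in the 6 comparisons with KO, 181 were called, and 166 of these were called under every alternative that kept both thresholds, while none reversed. The 15 others were Hk2, Pfkfb3, Gapdh and Ero1l in male R172H, Hk2 in male Y202C, P4ha1 in male Y217C, Gpi1, Pfkfb3, Ndrg1 and Ero1l in female R172H, Bnip3 in female Y202C and Pfkfb4, Aldoc, Pkm and Slc16a1 in female Y217C, each lost when at least 1 library was left out. Of the 47 values not called, 18 were called under some alternative. With an absolute log2 fold change above 0.5 also required, by construction fewer members were called. These were 9, 23 and 21 in male R172H, Y202C and Y217C and 15, 23 and 18 in the female lines. In the R172H, Y202C and Y217C interactions they were 13, 19 and 18, and between the KO lines 5. Under this rule all genes called fell from 5872 to 1861, 10529 to 6531 and 10176 to 5812 in the male R172H, Y202C and Y217C comparisons. In the female ones they fell from 10060 to 5603, 9891 to 5435 and 8183 to 3657. In the R172H, Y202C and Y217C interactions they fell from 8365 to 5218, 9805 to 7214 and 7913 to 5054. Between the KO lines they fell from 4482 to 1730, while voom without this rule called 7186. Between the KO lines, 12 members were higher and 16 lower in a fit of only those lines, against 6 and 15. Leaving out each replicate gave 19 to 23, 32 to 35 and 32 to 33 members in male R172H, Y202C and Y217C, 28 to 29, 30 to 32 and 28 to 31 in the female lines, 22 to 25, 28 to 30 and 25 to 27 interactions and 15 to 22 between the KO lines. Equal replicate numbers did not pair the samples, since deviations of equal-numbered libraries had a mean correlation of −0.03 over 84 pairs. For male R172H against KO the mean was 0.26, with pairs from 0.098 to 0.456, and in the other 5 comparisons the mean lay between −0.20 and 0.09. With the number as a replicate block, 23, 33 and 33 members were called in the male lines, 31, 30 and 31 in the female lines, 24, 29 and 26 in the interactions and 20 between the KO lines.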
